A study of Mus musculus with 12 samples.

Results

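The Myc, Max and Mlx network was followed in nephron progenitor cells of fetal mouse kidneys through 10 genes, namely Myc, Mycn, Mycl, Max, Mga, Mnt, Mlx, Mlxip, Mlxipl and Txnip. The members were the rows of the deposited counts table whose gene name equals one of these symbols. All 10 were found once each among 49164 gene entries with counts, and all 10 were among the 17697 genes that passed the filter on low counts. RNA came from 12 litters, 4 in each of 3 maternal arms called normal, K and BHB after the library titles.

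Embryos carried 1 Six2-EGFP/Cre transgene on an outbred CD1 background in every arm, since wild-type CD1 females were mated with transgenic males, both 8 to 10 weeks old. The Six2 promoter drives the GFP of this transgene in the self-renewing cap mesenchyme, and GFP-positive cells of a whole litter at embryonic day E17.5 were sorted and pooled into 1 library. The normal arm had a control diet from conception. The other arms had either a ketogenic diet or the control diet with added β-hydroxybutyrate, a ketone body, and the labels contradict each other on which arm had which. The titles call K ketogenic and BHB β-hydroxybutyrate, while the treatment fields give the K libraries the supplement and the BHB libraries the ketogenic diet. K and BHB are therefore names of library sets here, and a comparison pooling the treated arms does not depend on the answer.

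Total counts ran from 7532784 to 12276119 per library. Six2, which defines the sorted cells, was at 445 ± 54.7 CPM (SD, n = 4; CPM is the count scaled for library size, with TMM factors) in normal against 324 ± 104 in K and 325 ± 86.7 in BHB, so this marker of the labelled cell type was present in every arm. Cited1, a marker of the earliest progenitors, stood at 23.8 ± 0.944, 12.6 ± 3.36 and 15.3 ± 4.01 CPM in the same order of arms. Six2 and Cited1 were picked for mention with their levels already known. They belong to a list of 20 progenitor self-renewal genes, of which 19 were tested. Of these, 2 were higher and 17 lower in K than in normal, with a median log2 difference of -0.35. In BHB 3 were higher and 16 lower, with a median of -0.27. Cited1 alone had -0.92 in K and -0.64 in BHB. A score of 61 markers of tubule, podocyte, ureteric, endothelial and leukocyte cells (mean log2 CPM) was 3.13 ± 0.467 in normal against 4.57 ± 1.06 in K and 4.33 ± 0.674 in BHB. The two-sided exact permutation p was 0.0571 for K against normal, 0.0286, the smallest that 4 against 4 litters can give, for BHB against normal, and 0.00808 for both treated arms against normal. The marker lists were chosen with earlier results of these data known, so these p values do not test a choice made beforehand. The score leaves out a stromal list, with 5 tested genes higher and 4 lower in K than in normal. It also leaves out an erythroid list, with 5 higher and 1 lower. Top values of the score were 5.53 (K 3), 5.43 (K 4), 5.17 (BHB 1) and 4.55 (BHB 2), and these 4 libraries are called marker-rich. The other 8 libraries had 2.47 to 3.93. Among these 8, the median log2 differences from normal of the 6 lists in the score ran from -0.61 (proximal tubule) to 1.54 (endothelial) in K. In BHB they ran from -0.44 (ureteric) to 3.25 (leukocyte). Leaving out the marker-rich libraries thus did not make the arms alike in these markers. Every marker of these lists had counts in every arm. In these bulk samples, fewer cells of a type and less RNA per cell cannot be told apart.

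Apart from Txnip, the members are basic helix-loop-helix leucine zipper proteins that bind DNA as pairs. Myc, Mycn and Mycl pair with Max and switch on genes of growth and ribosome making at the E-box sequence CACGTG, while Mnt and Mga pair with Max and repress. Mlx is a second common partner, and its partners Mlxip (MondoA) and Mlxipl (ChREBP) enter the nucleus and become active when glucose phosphates build up in the cell. Txnip is no transcription factor but the best known target of Mlxip, an alpha-arrestin that binds thioredoxin and removes glucose transporters from the cell surface. In the mouse kidney, Mycn is known to be needed for a normal number of nephrons.

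Promoters of the network were read from RefSeq on build GRCm38.p6, which listed a start for 9 of the 10 members. Myc had no listed start, so its promoter was not searched. The listed start of Max was not matched to a GENCODE M21 transcript of that gene. The Txnip promoter is shown because Txnip had the smallest p of the members in K against normal. Its 250 bases before the start (chr3:96557707-96557956, plus strand) are printed with capitals marking 2 CACGNG boxes set 5 bases apart and 2 matches to CCAAT, 1 of them on the other strand:
Txnip: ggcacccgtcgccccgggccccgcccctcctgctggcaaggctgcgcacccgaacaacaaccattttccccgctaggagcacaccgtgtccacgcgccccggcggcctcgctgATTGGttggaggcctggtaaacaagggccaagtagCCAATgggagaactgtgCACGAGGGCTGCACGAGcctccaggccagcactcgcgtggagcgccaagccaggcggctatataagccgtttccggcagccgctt
The paired boxes, a form of carbohydrate response element through which Mlx pairs act, lay 85 to 69 bases before the start. Only 2 boxes in the same orientation were searched for, so pairs with 1 box inverted would have been missed in any member. In this orientation they were present on either strand in 15 of 32851 mouse promoter windows of this length (0.0457%). Txnip was the 1 member with them among the 9 searched. CCAAT on either strand was in 33.8% of windows.

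The single E-box CACGTG, a palindrome read on both strands, was in 6.02% of all windows and in those of 3 of the 9 members searched. They are printed with the E-box in capitals to show that Mnt, Mlx and Mlxipl, a repressor and the partners of the ChREBP pair, carry the letters that the network's own proteins bind:
Mlx: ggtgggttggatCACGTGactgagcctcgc
Mnt: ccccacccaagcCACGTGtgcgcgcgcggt
Mlxipl: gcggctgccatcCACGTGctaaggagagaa
These windows are chr11:101087238-101087267 for Mlx, chr11:74830789-74830818 for Mnt and chr5:135089780-135089809 for Mlxipl, all on the plus strand. Mlxipl had a second listed start whose window held no E-box. A match of letters does not show that a protein binds there.

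Per length, the network was led by Txnip, Myc and Mga and closed by Mlxipl and Mycl. Levels between genes are given as CPM per kb of merged exons of GENCODE M21, as mean ± SD over the 12 litters. Txnip stood at 40.7 ± 15.2, Myc at 31.3 ± 3.96 and Mga at 28.1 ± 2.37 CPM per kb. Mycn followed at 17.6 ± 2.52, Mnt at 15.7 ± 2.34, Mlxip at 14.2 ± 1.14 and Max at 13.5 ± 1.58 CPM per kb. Mlx stood at 6.77 ± 0.77, Mlxipl at 2.77 ± 1.23 and Mycl at 1.15 ± 0.355 CPM per kb. Of neighbours in this order, only Mga and Mycn, and Max and Mlx, had ranges that did not overlap. Within the Myc family, Myc gave 62.3% ± 2.66 of the summed CPM per kb in normal against 62.5% ± 2.81 in K and 62.8% ± 4.02 in BHB. Mycn gave 36.0% ± 2.17, 34.8% ± 3.61 and 34.6% ± 4.48.

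**Figure D1:**
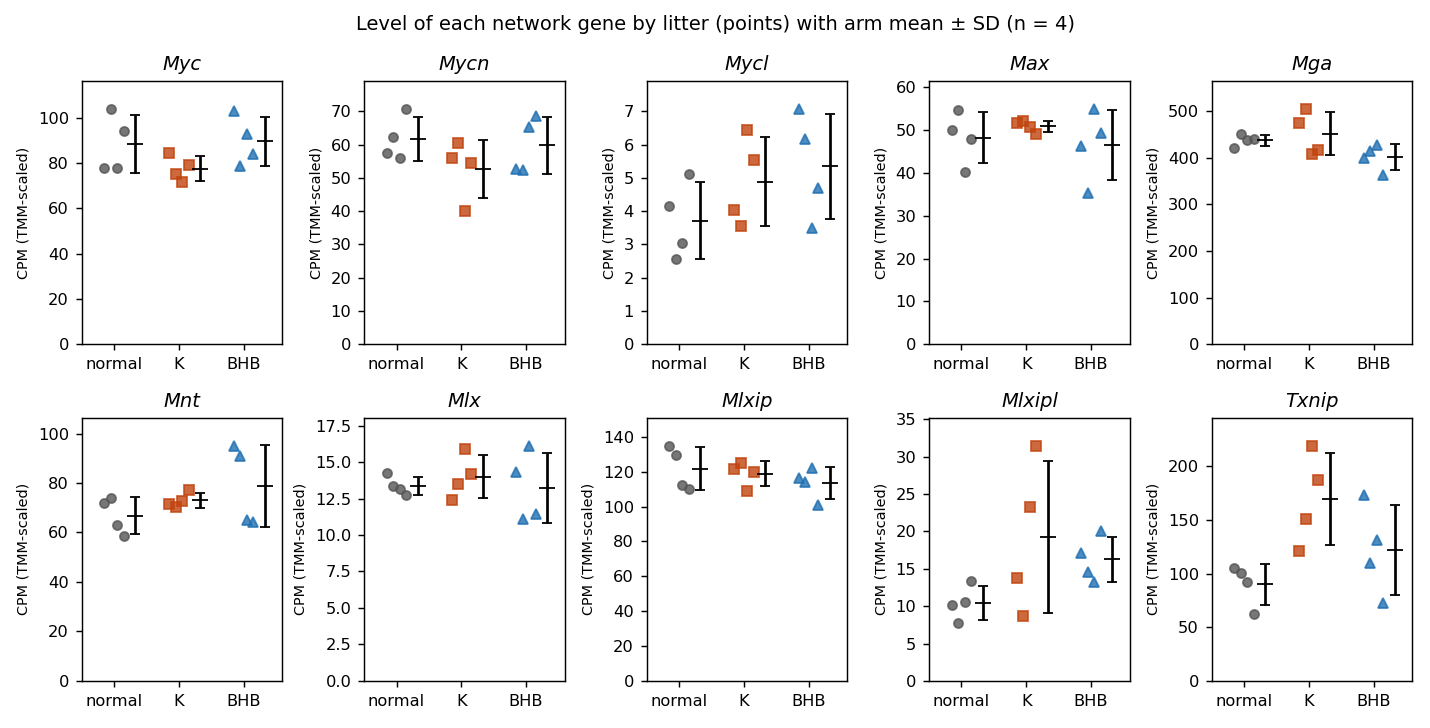
CPM (vertical axis, from 0) of the 10 network genes in each litter of the normal, K and BHB arms, with the arm mean ± SD (n = 4). Txnip is the gene whose K litters (121 to 219 CPM) all lie above the normal litters (62.5 to 105 CPM), and the other 9 genes overlap between these arms.

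No member differed between arms after adjustment in edgeR's quasi-likelihood test, in which 0% of all 17697 genes were called in any of the 4 comparisons. For single genes the smallest adjusted p was 0.103 in K against normal, 0.309 in BHB against normal, 0.252 for both treated arms and 0.403 for K against BHB. At an unadjusted p under 0.05 the test gave 3502 genes in K against normal (19.8%), 2089 in BHB against normal (11.8%), 3331 for both treated arms against normal (18.8%) and 1456 for K against BHB (8.23%). Of the members, 2 of 10 had an unadjusted p under 0.05 in K against normal and for both treated arms, Txnip and Mlxipl each time, and 0 of 10 in the other comparisons. The 2 of 10 is near the background share. The median log2 difference of the members was 0.07 in K and 0.0041 in BHB, beside 0.0046 and 0.016 over all genes. DESeq2's Wald test called 296 genes in K against normal (1.67%), 73 in BHB against normal (0.412%), 226 for both treated arms (1.28%) and 23 for K against BHB (0.13%), among them 1 member, Txnip in K.

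In K against normal 7 of 10 members had a positive log2 difference, beside 50.6% of all genes, and in BHB against normal 5 of 10, beside 52.8%. For both treated arms it was 6 of 10 beside 51.1%, and for K against BHB 6 of 10 beside 52.4%. Of the 10 members, 1 separated K from normal without overlap, Txnip with K higher, where 4.87% of all genes did so upwards and 5.26% downwards. None separated BHB from normal (3.95% and 4.67% of all genes), both treated arms from normal (1.03% and 0.831%) or K from BHB (1.76% and 2.31%). With normal and K paired by replicate number, 2.33% of the genes tested were called by edgeR and 0 members, with Txnip at an adjusted p of 0.0737. Without the marker-rich litters edgeR called 0 members, beside 0.0662% of genes in K against normal, 0.0276% in BHB against normal, 0% for both treated arms and 0.199% for K against BHB.

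All 4 K litters had more Txnip than all 4 normal litters. Its levels were 105, 101, 92.5 and 62.5 CPM in normal 1 to 4, 121, 151, 219 and 188 in K 1 to 4, and 173, 110, 131 and 72.8 in BHB 1 to 4. The K litters thus stood clear of the normal ones, while the BHB litters spread across both. A gap of this kind with K higher was found in 4.87% of all genes. The log2 difference of K from normal was 0.91 ± 0.27 (SE), or 1.88-fold (edgeR adjusted p = 0.221). DESeq2 gave 0.91 ± 0.26 with an adjusted p of 0.0395, and over all alternatives the adjusted p ran from 0.0395 to 0.864.

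The difference of BHB from normal was 0.43 ± 0.27 for Txnip (adjusted p = 0.477, 95% interval -0.15 to 1.02), and K differed from BHB by 0.47 ± 0.26 (adjusted p = 0.67). Txnip was therefore not shown to differ between the treated arms. Both treated arms together differed from normal by 0.67 ± 0.24 (adjusted p = 0.252). K 3, K 4 and BHB 1, with the highest marker scores, also had the 3 highest Txnip levels. K 2 came next with 151 CPM at a score of 3.47, while marker-rich BHB 2 had 110 CPM at a score of 4.55. Without the marker-rich litters the difference in K was 0.60 (adjusted p = 0.679), and adjusted for the marker score it was 0.43 (adjusted p = 0.864). The marker score was itself higher in the treated arms, at 4.57 in K and 4.33 in BHB against 3.13 in normal. Leaving out the marker-rich litters kept only K 1 and K 2 in K. These fits therefore cannot tell the arm and other cells apart, and the part of other cells was not tested.

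Arrdc4 is the other alpha-arrestin that Mlxip pairs are known to drive, and its log2 differences had the opposite sign to those of Txnip. It was chosen after its values were seen, and its levels were 71.5 ± 22.2 CPM in normal against 55.3 ± 10.1 in K and 52.0 ± 10.8 in BHB. The log2 difference was -0.37 ± 0.22 in K (edgeR adjusted p = 0.337) and -0.46 ± 0.22 in BHB (edgeR adjusted p = 0.428). Arrdc3, which directs receptors to lysosomes, was at 75.9 ± 21.4 CPM in normal against 139 ± 28.4 in K and 119 ± 39.8 in BHB (0.87 ± 0.26 in K, edgeR adjusted p = 0.221). Arrdc1, which shapes vesicles at the cell surface, was at 5.96 ± 0.64, 10.9 ± 4.56 and 10.2 ± 3.42 CPM. Of the 5 alpha-arrestins tested, Txnip included, 4 had a positive log2 difference in K, with a median of 0.87, or 0.35 without the marker-rich litters.

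Of the glucose-responsive pairs, Mlxip and Mlx differed between arms by less than their SE in K, and Mlxipl had the widest spread over the 12 litters relative to its mean. Mlxip was at 122 ± 12.2 CPM in normal against 119 ± 7.13 in K and 113 ± 9.10 in BHB. Its log2 difference was -0.034 ± 0.085 in K (95% interval -0.22 to 0.15) and -0.10 ± 0.085 in BHB (-0.29 to 0.083). Mlx, the shared partner, was at 13.4 ± 0.62, 14.0 ± 1.46 and 13.2 ± 2.39 CPM, with log2 differences of 0.063 ± 0.13 in K and -0.013 ± 0.13 in BHB. Mlx overlaps Psmc3ip on the opposite strand, and reads of the pair could be mixed. The intervals of both genes leave room for changes of up to 0.36 in either arm on the log2 scale.

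Mlxipl, best known from liver and fat, was at 10.2, 7.75, 10.5 and 13.4 CPM in normal 1 to 4, at 13.7, 8.62, 23.3 and 31.4 in K 1 to 4, and at 17.2, 14.6, 13.3 and 20.1 in BHB 1 to 4. K 3 and K 4 were the highest of the 12 litters, K 1 and K 2 lay near the normal litters, and both treated arms overlapped normal. The difference was 0.88 ± 0.34 in K (edgeR adjusted p = 0.225) and 0.64 ± 0.34 in BHB (edgeR adjusted p = 0.446). Without the marker-rich litters these became 0.11 and 0.67, and adjusted for the marker score 0.052 and 0.068. In the same litters the 12 proximal tubule markers had a summed level of 165 to 1426 CPM in normal against 409 to 3567 in K and 702 to 1608 in BHB. Their median log2 difference in K was 1.34, and other marker lists also lay above 0. These medians were 2.11 for distal tubule, 1.57 for podocyte, 1.09 for ureteric, 2.57 for endothelial and 1.26 for leukocyte markers. Which cells held the Mlxipl RNA was not tested.

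**Figure D2:**
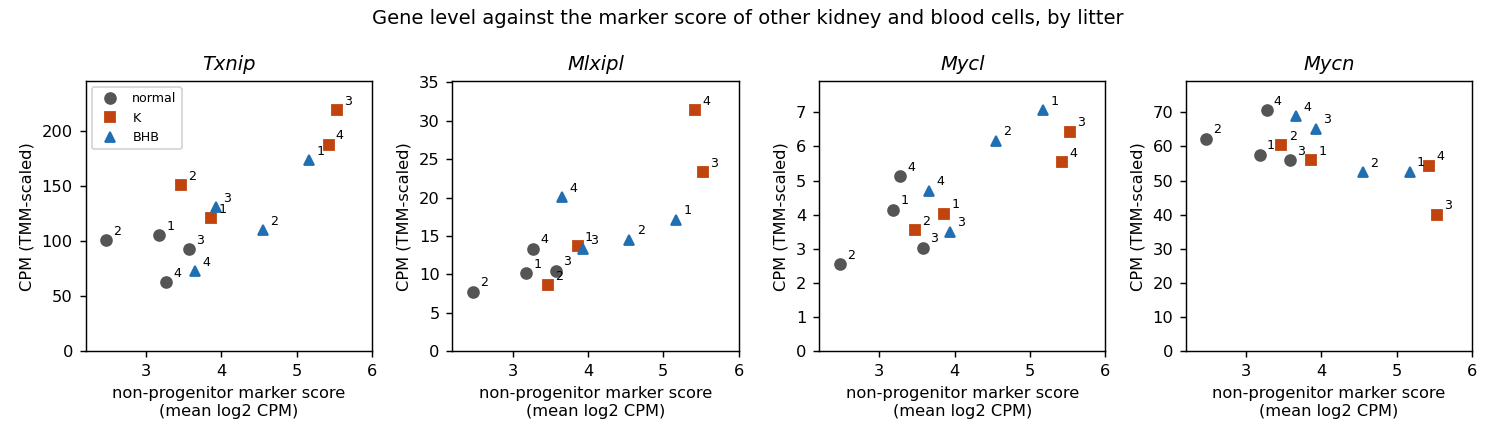
CPM of Txnip, Mlxipl, Mycl and Mycn (vertical axes, from 0) against the marker score of other kidney and blood cells (horizontal axis, mean log2 CPM), with 1 point a litter and the replicate number beside it. The 4 litters with a score of 4.55 or more hold the 4 highest Mycl and the 4 lowest Mycn levels.

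Among the activators, Myc and Mycn had negative differences in K that did not pass the test. Myc was at 77.7, 104, 77.6 and 94.2 CPM in normal 1 to 4, at 84.3, 75.2, 71.8 and 79.0 in K 1 to 4, and at 103, 78.5, 93.0 and 83.9 in BHB 1 to 4. The arms overlapped, with a difference of -0.19 ± 0.11 in K (95% interval -0.43 to 0.055, edgeR adjusted p = 0.344) and 0.021 ± 0.11 in BHB (-0.22 to 0.26, edgeR adjusted p = 0.945). K against BHB gave -0.21 ± 0.11 for Myc (edgeR adjusted p = 0.655).

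Mycn was at 57.6, 62.3, 55.9 and 70.7 CPM in normal 1 to 4, at 56.0, 60.4, 40.0 and 54.4 in K 1 to 4, and at 52.6, 52.5, 65.2 and 68.8 in BHB 1 to 4. K 3 was the lowest of the 12, and the arms overlapped. The difference was -0.22 ± 0.14 in K (edgeR adjusted p = 0.348) and -0.044 ± 0.13 in BHB (edgeR adjusted p = 0.894). The marker-rich litters had 40.0 to 54.4 CPM, below the 55.9 to 70.7 CPM of the other 8, an order found in 6.32% of all genes. Adjusted for the marker score, the Mycn difference in K was 0.042. Beside this, the 20 genes of the progenitor self-renewal list had a summed level of 3176 to 3375 CPM in normal against 1986 to 3307 in K and 2287 to 3333 in BHB. Without the marker-rich litters, the median log2 difference of this list was -0.10 in K and -0.11 in BHB.

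Mycl was the scarcest member, at 2.55 to 5.13 CPM in normal against 3.55 to 6.44 in K and 3.50 to 7.07 in BHB. With 26 to 82 counts a library, counting error alone was 11% to 19.6%, and the spread within arms was 27.3% to 31.1%. The difference was 0.40 ± 0.29 in K (edgeR adjusted p = 0.439) and 0.53 ± 0.29 in BHB (edgeR adjusted p = 0.449). The marker-rich litters had 5.53 to 7.07 CPM, above all other litters, an order found in 11.3% of genes. Adjusted for the score, the differences were -0.24 and -0.0020.

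Max and its repressive partners Mga and Mnt overlapped between arms. Max was at 48.2 ± 6.0 CPM in normal against 50.9 ± 1.34 in K and 46.5 ± 8.23 in BHB. Its 95% interval was -0.19 to 0.35 in K and -0.32 to 0.22 in BHB. Mga, which has a T-box beside its helix-loop-helix domain, had the most counts of the members (2855 to 5270), over 15340 bases of merged exons. It was at 438 ± 12.0 CPM in normal against 452 ± 46.2 in K and 402 ± 28.5 in BHB, and K exceeded BHB by 0.17 ± 0.081 (edgeR adjusted p = 0.62). Without the marker-rich litters this was 0.32 (adjusted p = 0.184), with K at 476 and 504 and BHB at 429 and 363 CPM.

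Mnt was at 71.8, 74.1, 63.0 and 58.6 CPM in normal 1 to 4 and at 70.2 to 77.2 in K. In BHB it split into 95 and 91.1 in BHB 1 and BHB 2 and 65.2 and 64.1 in BHB 3 and BHB 4. The BHB difference of 0.24 ± 0.13 (edgeR adjusted p = 0.45) became -0.049 without the marker-rich litters.

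**Figure D3:**
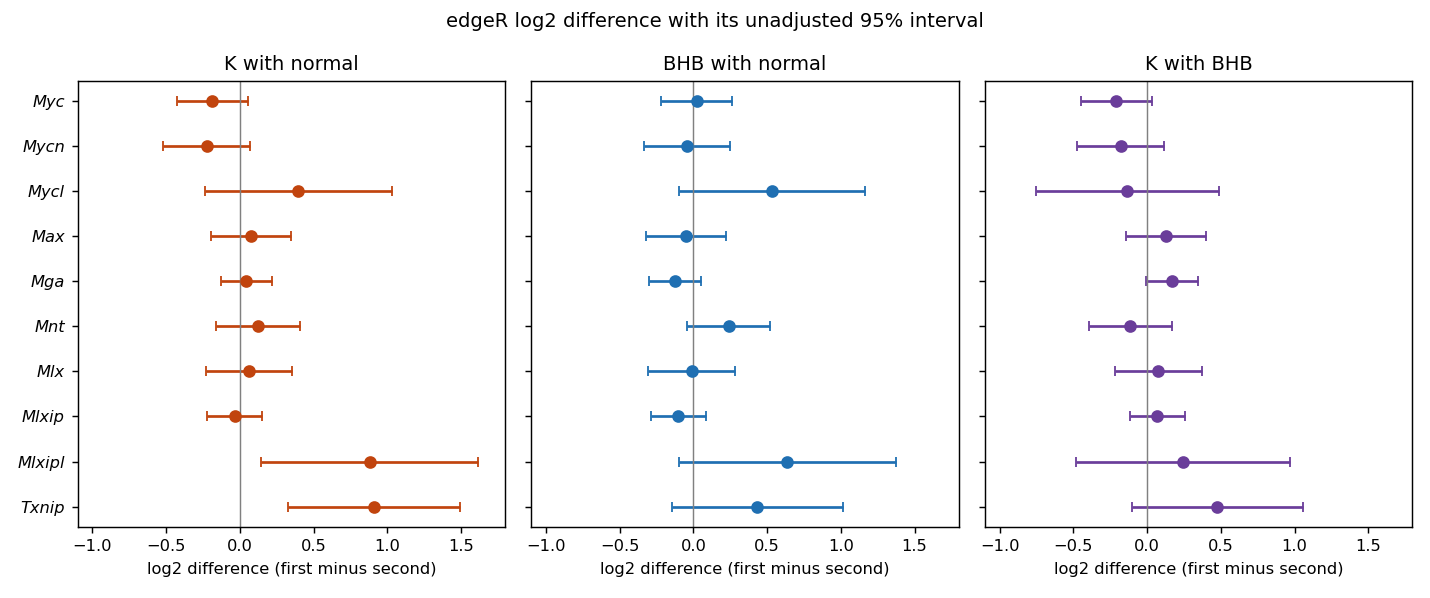
Log2 difference (horizontal axis) of each member in K against normal, BHB against normal and K against BHB, with unadjusted 95% intervals from edgeR. The intervals of Txnip (0.32 to 1.49) and Mlxipl (0.15 to 1.62) in K lie above 0, and all others include it.

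Genes around the network were described from 8 lists, none of whose genes edgeR called. DESeq2 called 1 of 19 cell cycle and glycolysis targets, 4 of 25 glucose targets and 2 of 5 alpha-arrestins in K against normal, beside 1.67% of all genes. Txnip is in both of the latter lists and is counted in each. In BHB against normal it called 1 of 13 genes of the thioredoxin list, beside 0.412% of all genes. The K and BHB comparisons share the 4 normal litters. Of Myc targets of ribosome making and growth, 27 of 32 had a negative log2 difference in K and 28 of 32 in BHB, with 0 called in either. The medians were -0.20 and -0.15, beside 0.0046 and 0.016 over all genes, and -0.052 and -0.064 without the marker-rich litters. In K, 1 was higher and 7 were lower at an unadjusted p under 0.05, beside 19.8% of all genes in either direction. Wdr12, a ribosome assembly factor, stood at 42.2 ± 3.03 CPM in K, below the 52.0 ± 2.75 CPM of normal with no overlap (-0.30 ± 0.090, edgeR adjusted p = 0.221), a gap found with K lower in 5.26% of genes. Srm, which makes spermidine, was at 34.4 ± 4.37 and 44.5 ± 7.48 CPM.

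Cell cycle and glycolysis targets of Myc were split, with 9 of 19 tested members higher and 10 lower in K, and 8 higher and 11 lower in BHB. The list does not separate genes that Myc raises from genes that it lowers, so these counts do not measure Myc activity. Slc3a2, the heavy chain of amino acid exchangers, was at 75.2 ± 4.99 CPM in normal against 113 ± 32.1 in K and 96.4 ± 8.57 in BHB. Every treated litter exceeded every normal one for this gene, which held with treated arms higher for 1.03% of all genes (edgeR adjusted p = 0.252). Cdc25a, a phosphatase that opens S phase, was at 87.9 ± 9.09, 72.1 ± 13.2 and 73.0 ± 6.97 CPM.

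Of the 12 other subunits and partners of the Polycomb complex that holds Mga and Max, 11 had a negative difference in K and 11 in BHB, with medians of -0.18 and -0.17 and 0 called. E2f6, its DNA-binding repressor, was at 47.8 ± 4.83 CPM in normal against 42.2 ± 3.31 in K and 40.3 ± 0.97 in BHB. All BHB litters were below all normal litters for E2f6 and for 3 more genes of the list, beside 4.67% of all genes. The median in BHB was -0.18 without the marker-rich litters, and that in K was -0.077. Wdr5, a scaffold of chromatin complexes, was at 76.3 ± 3.38, 68.1 ± 6.69 and 66.2 ± 3.84 CPM.

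Myc cofactors and turnover factors had medians of -0.14 in K and -0.12 in BHB, with 13 and 12 of 16 lower and 0 called by edgeR. The medians were -0.035 and -0.065 without the marker-rich litters. Ruvbl1, an ATPase that works with Myc, was at 121 ± 12.9 CPM in normal against 87.9 ± 15.1 in K and 100.1 ± 13.8 in BHB. Of the 4 Mxd proteins, further repressive partners of Max, Mxd4 was at 133 ± 11 CPM in normal against 105 ± 11.2 in K and 115 ± 13.1 in BHB, and Mxi1 at 102 ± 8.41, 103 ± 8.00 and 97.0 ± 8.33. All K litters lay below all normal litters for Mxd4 (-0.33 ± 0.10, edgeR adjusted p = 0.221), as for 5.26% of all genes. The Mxd4 difference was -0.20 without the marker-rich litters.

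**Figure D4:**
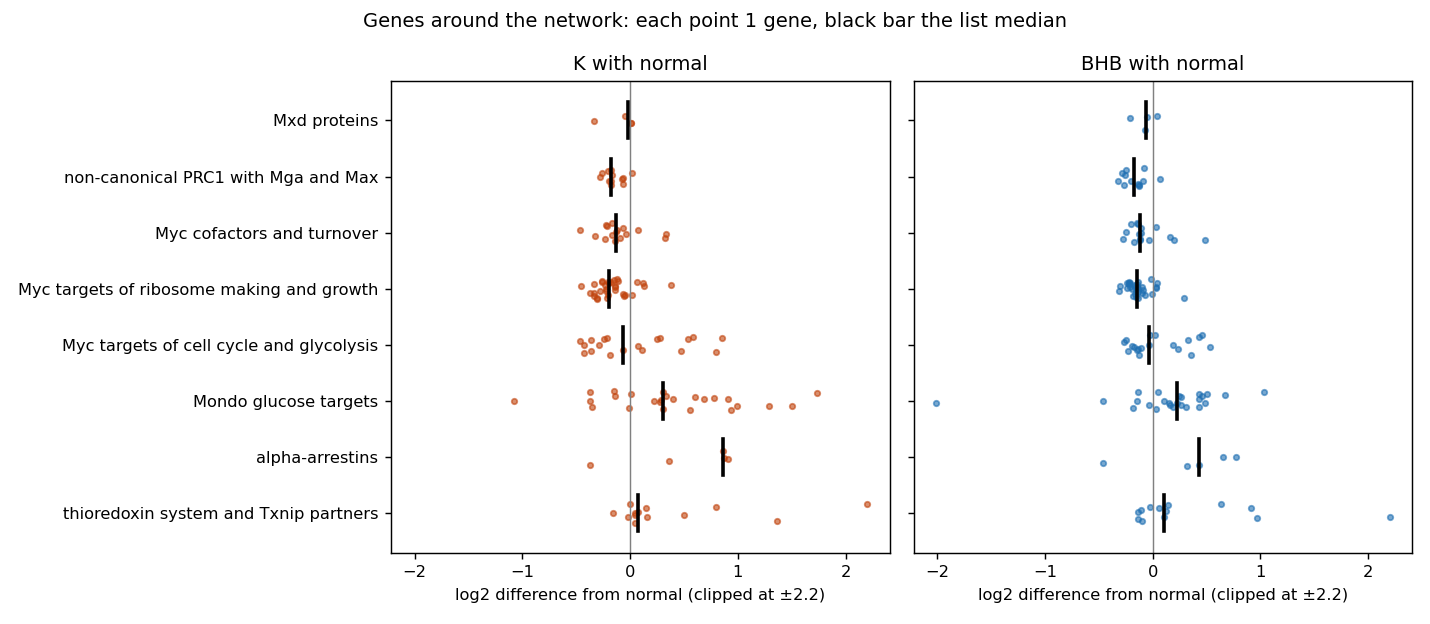
Log2 difference from normal (horizontal axis, clipped at ±2.2) of each tested gene of 8 lists around the network, for K and for BHB, with the median as a black bar. Nlrp3 of the thioredoxin list lies beyond the clip in both (2.39 and 4.18). Medians lie below 0 for ribosome-making Myc targets (-0.20 and -0.15) and above 0 for alpha-arrestins (0.87 and 0.43).

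Glucose targets of Mlxip and Mlxipl had 18 of 25 tested members higher in K and 19 of 25 in BHB, with medians of 0.31 and 0.23 and 0 called by edgeR. Without the marker-rich litters the medians were -0.025 and 0.033. Acaca, which makes malonyl-CoA, was at 155 ± 9.31 CPM in normal against 121 ± 15.3 in K and 140 ± 10.7 in BHB. In K, 3 of the 25 genes lay above normal with no overlap, Txnip among them, and 3 below, Acaca among them, beside 4.87% and 5.26% of all genes. Thioredoxin system genes and Txnip partners had medians of 0.072 and 0.10, with 11 and 8 of 13 higher and 0 called by edgeR. Both medians were closer to 0, at -0.033 and 0.022, without the marker-rich litters. Slc2a1, the glucose transporter that Txnip removes from the surface, was at 95.3 ± 6.78, 165 ± 35.0 and 148 ± 59.0 CPM. Its log2 difference was 0.79 ± 0.25 in K (edgeR adjusted p = 0.221) and 0.63 ± 0.25 in BHB (edgeR adjusted p = 0.417). Without the marker-rich litters these were 0.52 and 0.055. Nlrp3, an inflammasome sensor of myeloid cells, was at 0 to 0.69 CPM in normal against 1.21 to 3.54 in K and 0.65 to 25.0 in BHB, beside summed leukocyte markers of 26.7 to 41.5, 42.8 to 74.0 and 50.7 to 176 CPM.

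Genes most like a member were named by Pearson's r of log2 CPM over the 12 litters among 10350 other genes with a mean of at least 10 CPM, as a description. Among those most like Txnip were Rbms1 (r = 0.934), Atp2c1 (0.932), Vamp2 (0.931) and Sptbn1 (0.924). Over the other 8 litters, with the marker-rich ones left out, the r values of these 4 genes were 0.866 to 0.892. Those most like Mycn were Cpxm1 (0.963), Rcn3 (0.950), Cers5 (0.940), Arhgef25 (0.927) and Tle2 (0.919). For Myc they were Ints11 (0.883), Coro1c (0.809), Pqbp1 (0.796), Paf1 (0.780) and Atg13 (0.766).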

How the data were processed

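Raw counts per Ensembl gene were deposited by the authors, beside a normalized signal that, per the file headers, is the count after DESeq2 normalization; this signal entered no test. DESeq2 1.36.0, HTSeq 2.01, TopHat2 2.1.1 and cutadapt 2.10 are named in the submitters' processing notes, which state no role for them. Build, annotation release and strandedness of the counting were not given in the sources used here. Reads of antisense genes overlapping Txnip, Mlx, Mlxip and Mlxipl could therefore not be told apart from theirs. Mlxip also overlaps Gm42907, Gm42908 and Gm43813 on its own strand, and Max overlaps Gm47218 on its own. Strandedness would not separate reads shared with these genes. Gm43813 was at 24.2 ± 5.23 CPM in normal against 30.8 ± 6.79 in K and 25.8 ± 5.33 in BHB. Gene lengths came from GENCODE M21, matched by Ensembl identifier. Of 55414 entries, 6250 had blank counts and were left out; 49164 were used.

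Counts were analysed in R 4.3.3 with edgeR 4.0.16: filterByExpr at its defaults (count of about 10, total of 15), TMM factors, and the robust quasi-likelihood test on all 12 libraries with a mean per arm (9 residual degrees of freedom). Genes were called at an adjusted p of 0.05 or less (Benjamini-Hochberg over 17697 genes). DESeq2 1.42.0 was an alternative. Log2 CPM used a prior count of 2. The scripts were tested on simulated data. Litters are the replicates.

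The members and lists were chosen with earlier results of these data known. All members are named, with the 5 genes most like Txnip, Mycn and Myc and the 2 genes of smallest p for both treated arms in each list. Some genes that this rule names are not reported here. Replicate numbers are shared between arms, and the labels do not say that they mark a litter, day or batch. Same-numbered normal and K libraries deviated together from their arm means (r from 0.114 to 0.461 in 4 pairs, against -0.526 to 0.464 between different numbers), which normal and BHB (-0.258 to 0.103) and K and BHB (-0.441 to -0.216) did not. Paired by number in a fit of K and normal alone, 391 of 16746 genes were called (2.33%), none of them a member; Txnip had 0.90 (adjusted p = 0.0737).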

Additional observations from a re-analysis of the deposited data

How the results depend on the processing

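No member was called by edgeR under any alternative, and Txnip in K was the 1 member difference that DESeq2 called. Counts of called genes, 0 in each comparison, became 296 (K with normal), 73 (BHB with normal), 226 (both treated arms) and 23 (K with BHB) with DESeq2, 2, 2, 4 and 0 with no filter on low counts, and 391 for K with normal paired by replicate number in a fit of those arms, an alternative added after seeing the data. That replicate block gave 0 calls in BHB with normal and K with BHB, and with all 12 libraries the block gave 0 in each comparison; it changed no call of a member. Adjusted for the marker score, there was 1 call in K with normal and 1 in K with BHB. Without K 3, K 4, BHB 1 and BHB 2 there were 12 (K with normal), 5 (BHB with normal), 0 (both treated arms) and 36 (K with BHB). Leaving out 1 library at a time gave 0 to 4 calls in K with normal, with 1 without normal 4 and 4 without BHB 1, and 0 in the other comparisons.

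Of the 40 member differences, 23 changed sign somewhere, and of the 21 larger than their SE, 7 did. Adjusted for the marker score, the log2 difference in K was 0.042 for Mycn, -0.24 for Mycl, -0.030 for Mnt, -0.049 for Mlx and 0.030 for Mlxip. In BHB it was 0.18 for Mycn, -0.0020 for Mycl and 0.079 for Max, and for both treated arms 0.11 for Mycn, -0.12 for Mycl, 0.068 for Mga and -0.075 for Mlx. K with BHB gave -0.015 for Mlxipl. Without K 3, K 4, BHB 1 and BHB 2 it was -0.039 for Mlx and 0.028 for Mlxip in K; 0.12 for Mycn, 0.12 for Max, -0.049 for Mnt and 0.051 for Mlx in BHB; 0.025 for Mycn and 0.014 for Mga in both treated arms. K with BHB then gave -0.0024 for Max, 0.14 for Mnt, -0.090 for Mlx and -0.56 for Mlxipl. With no filter Myc in BHB was -0.00042. The cause was not tested.

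Leaving out 1 library at a time, these changed sign within their range. In K they were Mga (-0.014 to 0.092), Mlx (-0.0017 to 0.12) and Mlxip (-0.080 to 0.017). In BHB they were Myc (-0.053 to 0.11), Mycn (-0.12 to 0.025), Max (-0.14 to 0.058) and Mlx (-0.12 to 0.061). For both treated arms they were Myc (-0.14 to 0.0025), Max (-0.060 to 0.078) and Mlx (-0.031 to 0.062), and for K with BHB Mycl (-0.30 to 0.032) and Mlxipl (-0.095 to 0.49). Txnip in K stayed between 0.76 and 1.04. For both treated arms, a fit of only the arms compared is the same fit and was not repeated. Low counts limit the precision of Mycl, with 26 to 82 a library.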

Other observations

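Txnip overlaps the antisense gene Gm15441 in GENCODE M21. Gm15441 had 5 to 12 counts in normal, 11 to 19 in K and 7 to 21 in BHB. Its level was 0.870 ± 0.219 CPM in normal against 1.54 ± 0.438 in K and 1.33 ± 0.472 in BHB (SD, n = 4), so reads assigned to it were few beside those of Txnip. Psmc3ip, a recombination factor on the strand opposite Mlx, was at 21.4 ± 2.26, 16.6 ± 3.26 and 19.5 ± 3.32 CPM. Its mean CPM, not scaled for gene length, lay above that of Mlx in each arm. Gm15441 and Psmc3ip are named for their position, with their values known, and reads that both strands share could not be assigned.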
